A study of Mus musculus with 9 samples.

Results

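Resident macrophages are long-lived phagocytes that sit in the healthy heart and take up dead cells and cell debris, a process called efferocytosis. Mertk and Axl are receptor tyrosine kinases of the TAM family that bind phosphatidylserine on dying cells through the secreted bridging protein Gas6. Mertk also does so through protein S, and Timd4 encodes TIM-4, which binds phosphatidylserine directly. The scavenger receptors Cd163 (haemoglobin with haptoglobin) and Mrc1 (CD206, the mannose receptor), the hyaluronan receptor Lyve1, the folate receptor Folr2, the carbonyl reductase Cbr2 and the complement receptor Vsig4 (CRIg) are used as markers of resident macrophages in the mouse. Most are not exclusive to them: Lyve1 also marks lymphatic endothelium, and Axl and Gas6 are also made by fibroblasts and vessel cells. These 10 genes were taken by symbol from the 38293 genes of a bulk RNA-seq count table, and all 10 were found and passed the filter on low counts, which kept 14124 genes.

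The libraries came from the left ventricle of male C57BL/6 mice aged 8 weeks. The labels give the infarct region as the tissue for every mouse. In 3 mice the tissue was taken 14 days after ischemia-reperfusion (I/R), and in 3 mice 1 day after it. The other 3 had a sham operation and carry no I/R, and the labels do not say how long after surgery their tissue was taken. For I/R, the LAD, a main coronary artery of the left ventricle, was tied off for 1 hour and then released. The table gives the 14-day columns 1 shared name, so those libraries are called A, B and C. The 1-day mice are 4, 5 and 6 and the sham mice are 1, 2 and 3. Bulk tissue was sequenced, so fewer cells of a type and less RNA of a gene per cell cannot be told apart in any value below.

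Total counts per library were 20215781 to 36816818, of which 7.22M to 15.97M lay outside ribosomal RNA genes. The first principal component of log2 CPM (counts per 1M counts of the scaled library) held 64.4% of the variance. Mouse 6 lay at 37.2 on it, apart from mice 4 and 5 at 78.0 and 78.7. Cardiomyocyte genes, the defining markers of the labelled tissue, were present in every library, with a summed level of 46288 to 60598 CPM at 14 days, 32235 to 48538 CPM at 1 day and 60109 to 66052 CPM in sham for 8 genes. Most of this sum was Ttn, at 37308 CPM at 14 days, 29640 CPM at 1 day and 43233 CPM in sham on average.

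At 1 day after I/R the 10 genes did not move as a block. Axl and Mrc1 rose, Gas6, Folr2 and Cd163 fell, and Mertk, Lyve1, Timd4, Cbr2 and Vsig4 did not pass the test (edgeR quasi-likelihood test, Benjamini-Hochberg adjusted p under 0.05 over all genes tested). At 14 days Axl and Mrc1 were again above sham, joined by Gas6, and the other 7 did not pass. Between the times, Gas6 and Folr2 were higher at 14 days than at 1 day and the other 8 did not pass. The count of 5 of 10 at 1 day stands beside 54.2% of all genes called in that comparison (29.4% higher and 24.8% lower). The count of 3 of 10 at 14 days stands beside 14.4% of all genes (8.75% higher and 5.64% lower), and the count of 2 of 10 between the times beside 51.9% (25.1% higher and 26.8% lower). No gene of the 10 was called lower in either comparison of the 14-day group, and none had an unadjusted p under 0.05 in that direction or was called lower by DESeq2 or limma-voom (0 in each).

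**Figure D1:**
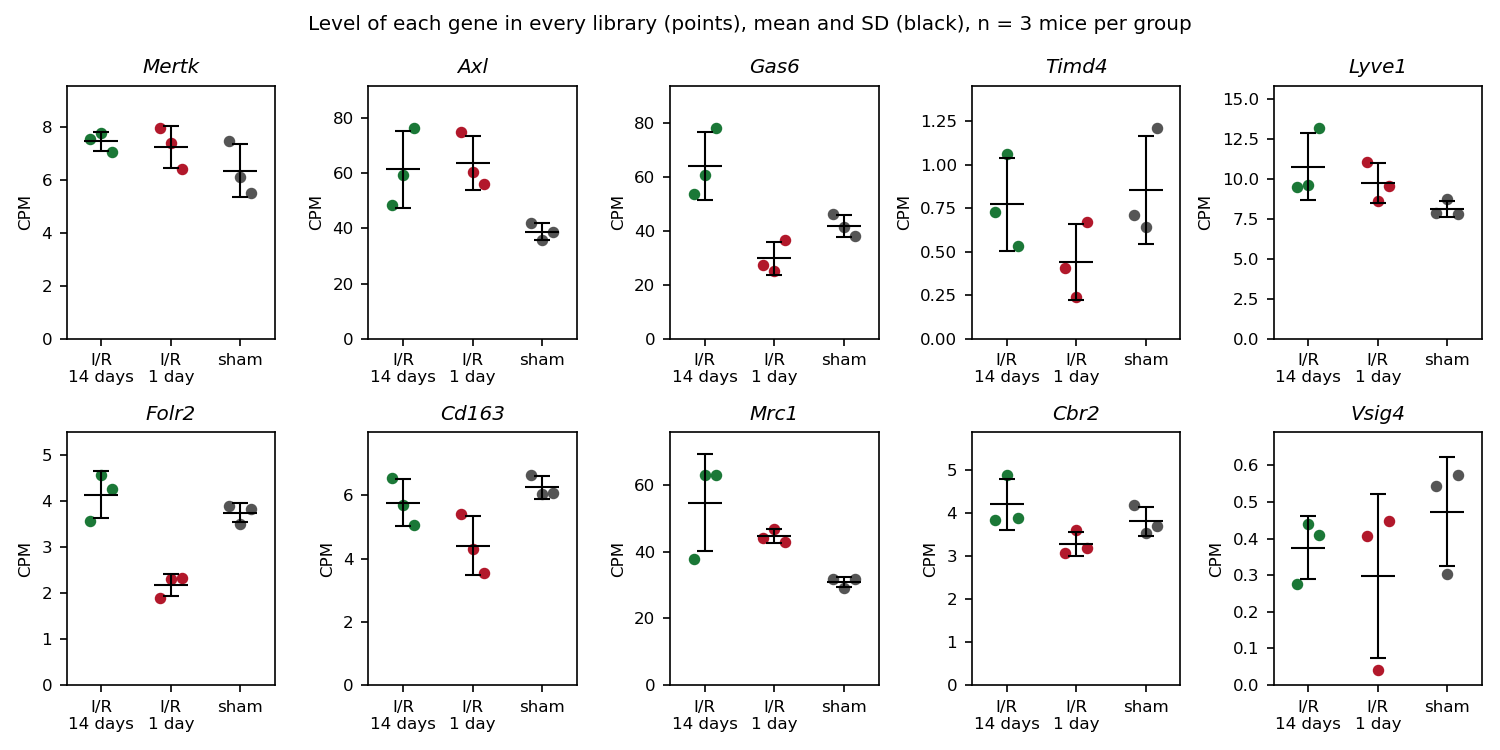
Level of each of the 10 genes in CPM (y axis, from 0) in the 3 libraries at 14 days after I/R, at 1 day after I/R and in sham, with the mean and SD in black. Axl and Mrc1 lie above sham at both times, Gas6 is highest at 14 days and lowest at 1 day, and Folr2 at 1 day lies below every other library.

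In GRCm38 (GENCODE M21) all 10 are protein-coding genes. Mertk lies on chromosome 2 from 128698956 to 128802894 and Mrc1 on the same chromosome from 14229392 to 14332057. On chromosome 7 lie Axl (25757273 to 25788705), Lyve1 (110850607 to 110863239) and Folr2 (101839988 to 101857194). Gas6 lies on chromosome 8 (13465374 to 13494490), Cd163 on chromosome 6 (124304656 to 124330527) and Vsig4 on chromosome X (96247203 to 96293438). Timd4 (46810800 to 46844332) and Cbr2 (120729489 to 120732114) lie on chromosome 11.

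The starts of the 5 genes that changed at 1 day are shown because they include 2 that rose and 3 that fell, in genes used as markers of 1 cell type. The 250 bases before the start are from RefSeq (GRCm38.p6), which lists 2 starts for Folr2. Windows were found for 9 of the 10 genes. Capitals mark GAGGAA (a core of the site of PU.1, a factor of all macrophages, which reads TTCCTC where it lies on the other strand), TGANTCA (AP-1) and TGCTGA (a half-site of MAF factors), each searched on both strands, with no overlap between motifs in these windows.
Axl, chr7:25788734-25788983, minus strand: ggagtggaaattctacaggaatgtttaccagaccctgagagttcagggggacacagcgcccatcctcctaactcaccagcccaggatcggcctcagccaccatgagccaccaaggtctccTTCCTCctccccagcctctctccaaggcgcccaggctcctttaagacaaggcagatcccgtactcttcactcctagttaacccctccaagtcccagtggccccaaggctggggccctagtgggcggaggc
Mrc1, chr2:14229164-14229413, plus strand: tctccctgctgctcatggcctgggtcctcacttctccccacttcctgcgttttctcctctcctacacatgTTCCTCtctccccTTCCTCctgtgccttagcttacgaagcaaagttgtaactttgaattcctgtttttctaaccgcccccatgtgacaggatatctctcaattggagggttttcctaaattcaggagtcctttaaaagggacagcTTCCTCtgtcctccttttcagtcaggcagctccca
Gas6, chr8:13494536-13494785, minus strand: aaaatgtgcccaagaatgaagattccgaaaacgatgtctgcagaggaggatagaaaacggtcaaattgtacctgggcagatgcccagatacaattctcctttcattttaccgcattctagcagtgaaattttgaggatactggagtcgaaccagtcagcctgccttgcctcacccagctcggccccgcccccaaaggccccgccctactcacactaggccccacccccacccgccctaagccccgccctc
Cd163, chr6:124304401-124304650, plus strand: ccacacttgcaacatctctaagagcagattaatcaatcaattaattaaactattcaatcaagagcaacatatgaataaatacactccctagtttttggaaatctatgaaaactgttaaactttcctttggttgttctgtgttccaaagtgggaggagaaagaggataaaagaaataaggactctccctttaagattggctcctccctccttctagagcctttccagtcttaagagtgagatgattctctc
Folr2 (inner start), chr7:101845332-101845581, minus strand: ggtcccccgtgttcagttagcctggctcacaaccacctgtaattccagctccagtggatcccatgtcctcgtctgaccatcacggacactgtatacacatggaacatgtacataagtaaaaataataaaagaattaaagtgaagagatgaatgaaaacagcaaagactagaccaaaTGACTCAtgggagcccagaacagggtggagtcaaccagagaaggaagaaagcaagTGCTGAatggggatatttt
Folr2 (outer start), chr7:101857191-101857440, minus strand: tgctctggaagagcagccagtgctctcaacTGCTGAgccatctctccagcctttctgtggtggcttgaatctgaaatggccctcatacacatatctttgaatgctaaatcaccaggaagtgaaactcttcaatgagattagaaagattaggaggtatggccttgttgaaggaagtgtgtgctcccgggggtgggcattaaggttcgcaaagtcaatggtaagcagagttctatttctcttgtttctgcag

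The Mrc1 window held GAGGAA at 3 places, with first bases 180, 167 and 35 bases before the start, and the Axl window at 1 place, 130 bases before it. GAGGAA was present in 23.3% of 32851 windows of the same length, TGANTCA in 6.7% and TGCTGA in 16.1%. The inner Folr2 window held TGANTCA 74 bases before the start and TGCTGA 19 bases before it, and the outer one TGCTGA 220 bases before it. Among the genes not shown, GAGGAA was at 2 places in the Vsig4 window and at 1 in the Cbr2 window, and TGCTGA at 2 in the Timd4 window. None of the 3 motifs was found in the Gas6 and Cd163 windows. The Cd163 window had 36.8% G or C and no CpG, while the Gas6 window had 54.8% and 10 CpG, beside medians of 52.4% and 6 CpG over all windows. A match is a run of letters and no evidence of binding.

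Per kilobase of annotated exon, the level in sham was highest for Gas6, at 16.4 ± 1.61 CPM per kb (SD, n = 3 here and below), then Axl at 7.71 ± 0.627 and Mrc1 at 4.85 ± 0.232. Cbr2 at 2.87 ± 0.254 and Lyve1 at 2.79 ± 0.177 CPM per kb were neighbours that did not differ beyond their spread. Folr2 followed at 2.42 ± 0.136, Mertk at 1.47 ± 0.236 and Cd163 at 1.15 ± 0.0642 CPM per kb, and no libraries of these neighbours overlapped. The least abundant were Timd4 at 0.394 ± 0.144 and Vsig4, at 0.204 to 0.388 CPM per kb over its libraries, which overlapped. The order was different at 1 day, when Axl at 12.7 ± 1.94 and Gas6 at 11.6 ± 2.42 CPM per kb overlapped, and when Mertk at 1.67 ± 0.182 overlapped with Folr2 at 1.41 ± 0.155 CPM per kb. At 14 days Gas6 was again first, at 25.1 ± 4.96 CPM per kb, clear of Axl at 12.2 ± 2.79, while Axl overlapped with Mrc1 at 8.58 ± 2.29.

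Of the 2 TAM receptors among the 10 genes, Axl passed the test at both times and Mertk at neither. Axl was at 48.6, 59.3 and 76.5 CPM in the 14-day libraries A, B and C, at 74.9, 60.5 and 56.2 CPM in mice 4, 5 and 6 at 1 day, and at 42.0, 35.7 and 38.7 CPM in sham mice 1, 2 and 3. Every I/R library lay above every sham library. The log2 fold over sham was 0.72 (SE 0.16, edgeR adjusted p = 0.00317) at 1 day and 0.66 (SE 0.16, adjusted p = 0.0212) at 14 days. The 1-day call held with any 1 library left out, with an adjusted p of at most 0.0212 over all 18 alternatives. The 14-day call was lost without sham mouse 1 (adjusted p = 0.0515), 2 (0.103) or 3 (0.0674), without library B (0.0639) or C (0.0764), and with scaling by total count only (0.0695).

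Mertk, the TAM receptor most tied to macrophage efferocytosis, was at 7.55, 7.77 and 7.07 CPM at 14 days, at 7.97, 7.39 and 6.41 CPM at 1 day, and at 7.49, 6.10 and 5.50 CPM in sham. The groups overlapped, and the log2 fold over sham was 0.19 (SE 0.13, edgeR adjusted p = 0.257) at 1 day and 0.22 (SE 0.13, adjusted p = 0.288) at 14 days. Within a library, the count of Axl over that of Mertk was 6.44, 7.63 and 10.8 at 14 days, 9.40, 8.19 and 8.78 at 1 day, and 5.60, 5.85 and 7.03 in sham. The 1-day libraries lay above the sham libraries in this ratio, and the 14-day libraries overlapped with both.

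Gas6, the ligand of both receptors, moved in opposite directions at the times studied. It was at 53.4, 60.6 and 78.0 CPM at 14 days, at 27.1, 25.2 and 36.7 CPM at 1 day, and at 46.1, 41.3 and 38.0 CPM in sham. The 3 groups did not overlap, although the highest 1-day library (mouse 6) lay close to the lowest sham library. The log2 fold over sham was -0.50 at 1 day (SE 0.17, edgeR adjusted p = 0.0254) and 0.61 at 14 days (SE 0.16, adjusted p = 0.0315). At 14 days over 1 day it was 1.11 (SE 0.17, adjusted p = 3.73e-04), and this call held in all 18 alternatives, with an adjusted p of at most 0.00532. The calls against sham were less stable. The 1-day call was lost without sham mouse 1 (adjusted p = 0.0898) or 2 (0.0576) and without mouse 4 (0.0868) or 5 (0.0966). With scaling by total count only it was also lost, with a log2 fold of -0.04 (adjusted p = 0.882). The 14-day call was lost without sham mouse 1 (0.0615), 2 (0.120) or 3 (0.110) and without library B (0.0800) or C (0.149).

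Set against its receptor in the same library, which no scaling factor can alter, the count of Gas6 over that of Axl was 1.10, 1.02 and 1.02 at 14 days, 0.361, 0.416 and 0.653 at 1 day, and 1.10, 1.16 and 0.982 in sham. The 1-day libraries lay below all others, and the 14-day and sham libraries overlapped. The count of Gas6 over that of Mertk was 8.64 ± 2.10 at 14 days, 4.18 ± 1.34 at 1 day and 6.61 ± 0.404 in sham, with no overlap between any groups. These and the other ratios of 2 members were chosen after the values were seen. None passed in two-sided exact permutation tests, where 3 against 3 libraries give no p below 0.1 (adjusted p of 0.160 or more over 24 tests). Gas6 shares 34 exonic bases (1.33%) with Tmem255b on the other strand, which had 29 to 87 counts per library.

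Timd4, whose protein TIM-4 marks self-renewing resident macrophages in the mouse heart, was near the limit of detection. Its counts were 21, 36 and 13 at 14 days, 18, 6 and 15 at 1 day, and 17, 19 and 19 in sham. In CPM that was 0.727, 1.06 and 0.531 at 14 days, 0.407, 0.238 and 0.672 at 1 day, and 0.712, 0.640 and 1.21 in sham, with overlap between all groups. The log2 fold over sham was -0.92 at 1 day (SE 0.42, edgeR adjusted p = 0.0801), and without mouse 6 it was -1.25 (adjusted p = 0.0228). The value of 14 days over 1 day was 0.87 (SE 0.40, adjusted p = 0.0901), and 1.21 (adjusted p = 0.0242) without mouse 6. At 14 days the log2 fold over sham was -0.06 (SE 0.38, adjusted p = 0.939). Vsig4, the complement receptor, had 8, 15 and 10 counts at 14 days, 18, 1 and 10 at 1 day, and 13, 9 and 9 in sham, too few to show a difference at this depth (log2 fold over sham -0.55, SE 0.54, adjusted p = 0.410 at 1 day and -0.27, SE 0.53, adjusted p = 0.766 at 14 days).

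The scavenger receptors Mrc1 and Cd163 parted at 1 day. Mrc1 was at 37.8, 63.1 and 63.1 CPM at 14 days, at 44.0, 46.9 and 43.0 CPM at 1 day, and at 31.7, 29.2 and 31.9 CPM in sham. Every I/R library lay above every sham library, and library A lay well below B and C. The log2 fold over sham was 0.53 at 1 day (SE 0.17, edgeR adjusted p = 0.0189) and 0.82 at 14 days (SE 0.17, adjusted p = 0.0109). The 1-day call was lost without sham mouse 2 (adjusted p = 0.0701) and without mouse 4 (0.0542) or 5 (0.0582), and the 14-day call without sham mouse 2 (0.0599). Over 1 day, the 14-day value was 0.29 (SE 0.16, adjusted p = 0.153), and 0.50 (adjusted p = 0.00127) without library A.

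Cd163 was at 6.54, 5.69 and 5.07 CPM at 14 days, at 5.41, 4.29 and 3.54 CPM at 1 day, and at 6.66, 6.03 and 6.07 CPM in sham. All 1-day libraries lay below all sham libraries, while the 14-day libraries overlapped with both. The log2 fold over sham was -0.48 at 1 day (SE 0.16, edgeR adjusted p = 0.0250) and -0.12 at 14 days (SE 0.16, adjusted p = 0.669). The value of 14 days over 1 day was 0.37 (SE 0.16, adjusted p = 0.0730), which passed with upper-quartile scaling (0.0463), without mouse 4 (0.0154) and without library C (0.0360). The 1-day call against sham was lost without sham mouse 1 (adjusted p = 0.0804), mouse 5 (0.0723) or mouse 6 (0.0582), and with scaling by total count only the log2 fold was 0.02 (adjusted p = 0.954). The count of Cd163 over that of Mrc1 was 0.173, 0.0901 and 0.0804 at 14 days, 0.123, 0.0915 and 0.0824 at 1 day, and 0.210, 0.206 and 0.190 in sham. Every I/R library lay below every sham library in this ratio, and library A was the nearest to sham.

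Folr2, the folate receptor of resident macrophages, had the steepest fall of the 10 genes among those called at 1 day. It was at 3.57, 4.57 and 4.25 CPM at 14 days, at 1.90, 2.30 and 2.33 CPM at 1 day, and at 3.89, 3.50 and 3.83 CPM in sham. The 1-day libraries lay below all others, and the 14-day and sham libraries overlapped. The log2 fold over sham was -0.79 at 1 day (SE 0.16, edgeR adjusted p = 0.00155) and 0.15 at 14 days (SE 0.15, adjusted p = 0.545), and that of 14 days over 1 day was 0.94 (SE 0.15, adjusted p = 5.42e-04). Both calls held with any 1 library left out and were lost with scaling by total count only (log2 fold -0.31, adjusted p = 0.268 at 1 day over sham, and 0.56, adjusted p = 0.0576 at 14 days over 1 day). Folr2 shares 975 of its 1546 exonic bases (63.07%) with the antisense gene Gm10602, to which 1 to 5 counts per library were assigned, and the strand setting of the counting is not given in the sources used here.

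Within a library, the count of Folr2 over that of Mrc1 was 0.0942, 0.0725 and 0.0674 at 14 days, 0.0432, 0.0492 and 0.0542 at 1 day, and 0.123, 0.120 and 0.120 in sham. The 3 groups did not overlap, so by this ratio the 14-day libraries lay between the 1-day and the sham libraries. Mrc1, the divisor here and for Cd163 and Cbr2, was itself above sham at both times. Its log2 fold over sham stood at percentile 76.4 of all genes tested at 1 day and at 92.9 at 14 days. The share of all genes with a lower ratio to Mrc1 was not computed. Cbr2, a carbonyl reductase, was at 3.84, 4.90 and 3.88 CPM at 14 days, at 3.08, 3.61 and 3.18 CPM at 1 day, and at 4.19, 3.54 and 3.71 CPM in sham. All 14-day libraries lay above all 1-day libraries, with a log2 fold of 0.36 (SE 0.15, edgeR adjusted p = 0.0570) that did not pass. It was called with DESeq2 size factors in edgeR (adjusted p = 0.0458), upper-quartile scaling (0.0418) and limma-voom (0.0470), and without library A (0.0472) or C (0.0462). Against sham its log2 fold was -0.22 at 1 day (SE 0.15, adjusted p = 0.251) and 0.15 at 14 days (SE 0.15, adjusted p = 0.539). Its count over that of Mrc1 was 0.0802 ± 0.0201 at 14 days, 0.0737 ± 0.00359 at 1 day and 0.123 ± 0.00822 in sham, and every I/R library lay below every sham library.

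**Figure D2:**
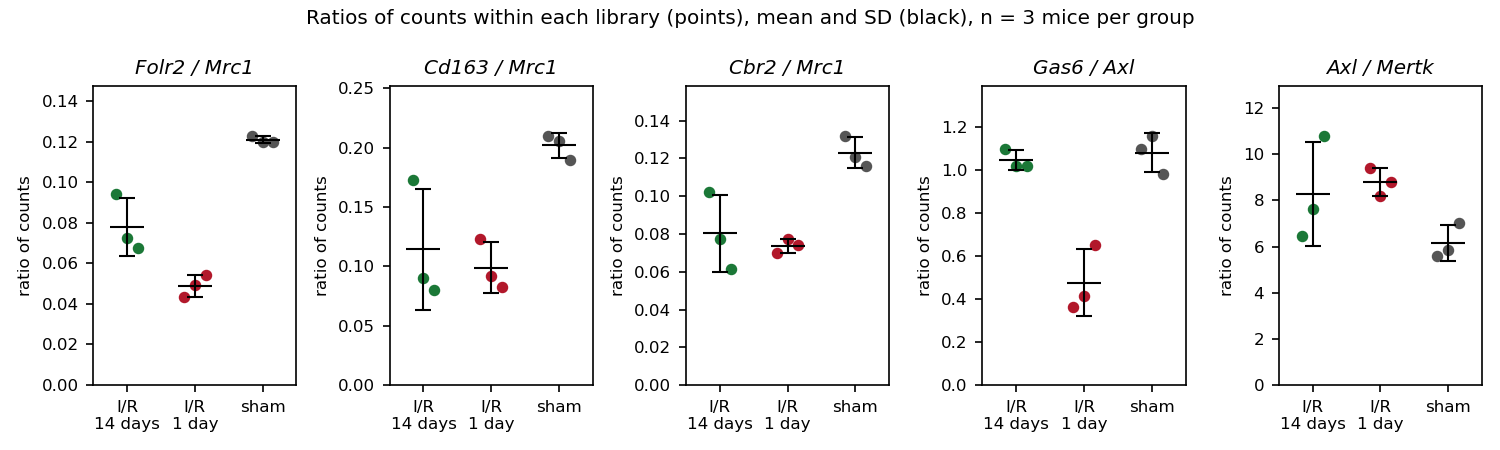
Ratio of the counts of 2 genes within each library (y axes, from 0) at 14 days after I/R, at 1 day after I/R and in sham, with the mean and SD in black. The ratios of Folr2, Cd163 and Cbr2 to Mrc1 are lower in all 6 I/R libraries than in sham, and Mrc1 itself was above sham at both times. The ratio of Gas6 to Axl is low in the 1-day libraries.

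Lyve1, the hyaluronan receptor, was at 9.49, 9.64 and 13.2 CPM at 14 days, at 11.1, 8.62 and 9.54 CPM at 1 day, and at 7.87, 8.73 and 7.80 CPM in sham. The 14-day libraries lay above the sham libraries, but the log2 fold of 0.40 (SE 0.15, edgeR adjusted p = 0.0922) did not pass. Without library A it was 0.47 (adjusted p = 0.0480). At 1 day the log2 fold over sham was 0.26 (SE 0.15, adjusted p = 0.147). The count of Lyve1 over that of Cd163 was 1.91 ± 0.604 at 14 days, 2.25 ± 0.385 at 1 day and 1.30 ± 0.133 in sham. The 1-day libraries lay above the sham libraries in this ratio. So did the 14-day libraries, but only narrowly, with library A and sham mouse 2 both at 1.45 after rounding.

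**Figure D3:**
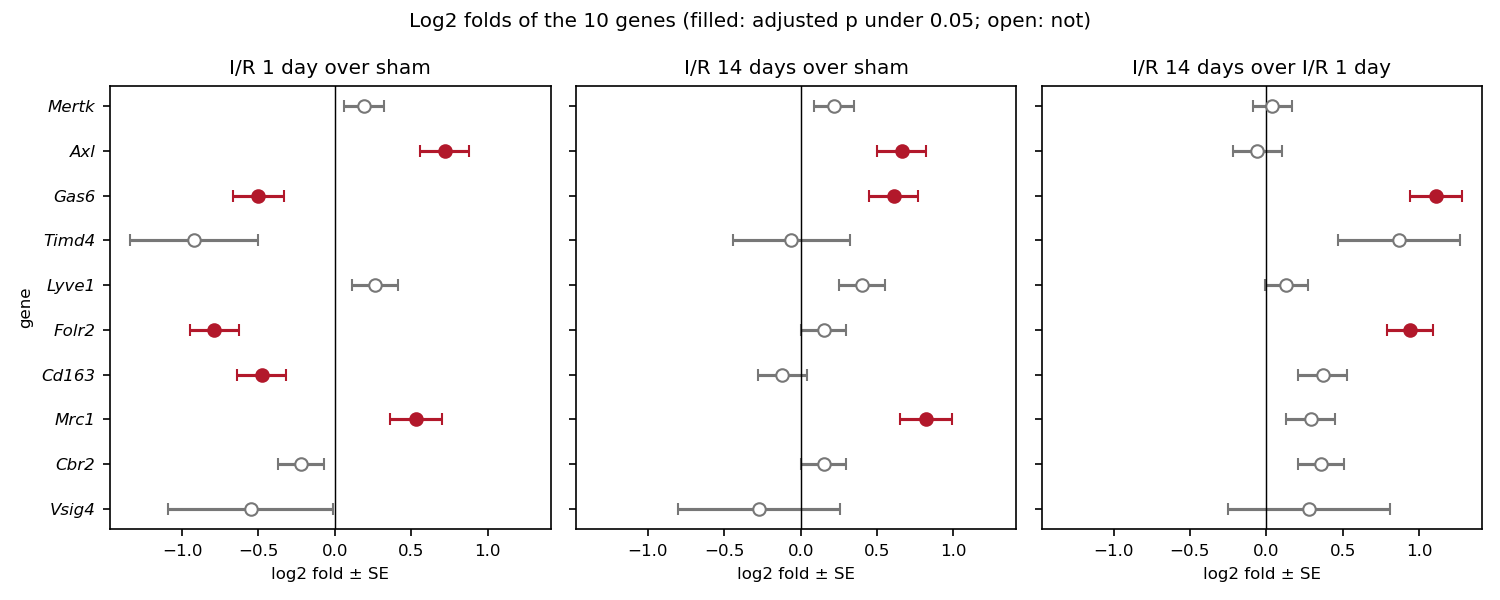
Log2 fold with its SE (x axis) of the 10 genes (y axis) at 1 day over sham, at 14 days over sham and at 14 days over 1 day, filled where the edgeR adjusted p is under 0.05. At 1 day 2 genes are filled above 0 and 3 below it, and at 14 days over sham the 3 filled genes (Axl, Gas6 and Mrc1) lie above 0.

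The median log2 fold of the 10 genes over sham was -0.35 at 1 day, beside 0.04 for all genes tested, and 0.19 at 14 days, beside 0.01. At 14 days over 1 day it was 0.33, beside 0.00. These directions depend on the scaling at 1 day. With total count only, the median of all genes moved to 0.53 at 1 day over sham, to 0.11 at 14 days over sham and to -0.38 at 14 days over 1 day, and that of the 10 genes to 0.14, 0.28 and -0.06. With that scaling 4 of the 10 were called at 1 day, all higher (Axl, Mrc1, Mertk with adjusted p = 0.0173 and Lyve1 with 0.00959), in place of 2 higher and 3 lower. Of all genes it called 48.6% higher and 7.48% lower at 1 day over sham, 5.10% and 0.793% at 14 days over sham, and 7.55% and 38.7% at 14 days over 1 day. The ratios of 2 genes within a library given above do not depend on it.

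Of 17 tested genes of macrophages in general, 13 rose at 1 day and the other 4 did not pass, with a median log2 fold of 1.31 beside 0.04 for all genes. Of all genes 29.4% rose at 1 day and 8.75% were above sham at 14 days. Itgam, an integrin of myeloid cells, had a log2 fold of 2.99 (SE 0.26, edgeR adjusted p = 3.21e-05), and Ctss, a lysosomal protease, one of 1.54 (SE 0.26, adjusted p = 8.64e-04). The list is thus not exclusive to macrophages, and neutrophil genes rose in the same libraries with a median log2 fold of 4.61. The part of other leukocytes in the level of the 17 genes was not tested. Among the 4 that did not pass was Csf1r, the growth factor receptor on which macrophages depend, at 29.1 ± 2.20 CPM at 1 day and 27.0 ± 1.48 CPM in sham (log2 fold 0.12, SE 0.13, adjusted p = 0.484). Another was Adgre1, which encodes F4/80, at 15.2 ± 1.79 CPM at 1 day and 10.9 ± 1.55 CPM in sham (log2 fold 0.48, SE 0.22, adjusted p = 0.0871). Both were chosen after their values were seen. With total count only, all 17 genes of the list were called higher at 1 day, beside 48.6% of all genes. Csf1r then had a log2 fold of 0.61 (edgeR adjusted p = 0.0179) and Adgre1 one of 0.96 (adjusted p = 0.00526). At 14 days 12 of the 17 were above sham, with a median log2 fold of 1.00, and the count was 15 with DESeq2, 7 with limma-voom and 9 with total count only. Csf1r was then called, with a log2 fold of 0.55 over sham (SE 0.13, adjusted p = 0.0210) and of 0.43 over 1 day (SE 0.13, adjusted p = 0.0178). Neither of these Csf1r calls held with total count only (edgeR adjusted p = 0.0646 and 0.853).

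Relative to the mean log2 CPM of those 17 genes, each of the 10 genes was lower in every 1-day library than in every sham library, by 0.58 (Axl) to 2.19 (Timd4) on the log2 scale. This held for 86.5% of all genes tested, with a median difference of -1.25, beside -1.65 for the 10 genes. The two-sided exact permutation p was 0.1 for each, the smallest that 3 against 3 libraries can give, and 0.130 after adjustment over 30 tests. At 14 days 8 of the 10 were lower than in sham without overlap, beside 73.9% of all genes. Between the times 5 of the 10 (Gas6, Lyve1, Folr2, Mrc1 and Cbr2) were higher at 14 days than at 1 day without overlap, beside 22.8% of all genes. Against Csf1r, Cd68, Adgre1 and Fcgr1 the 10 genes were also lower at 1 day, with log2 differences from -0.42 (Axl) to -2.03 (Timd4). Against Csf1r alone, an alternative added after the data were seen, the log2 difference from sham at 1 day was 0.60 for Axl, 0.42 for Mrc1, 0.14 for Lyve1 and 0.08 for Mertk, and the other 6 genes kept a lower value. At 14 days over 1 day, of the 5 genes above, Lyve1 (-0.28), Mrc1 (-0.16) and Cbr2 (-0.07) also changed direction against Csf1r alone.

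Of 15 other tested genes of resident macrophages, 4 rose and 2 fell at 1 day, shares near or below those of all genes (29.4% and 24.8%), with a median log2 fold of -0.05. At 14 days 5 were above sham, beside 8.75% of all genes, and the others did not pass. F13a1, a transglutaminase chain made by resident macrophages and monocytes, rose to 47.9 ± 6.54 CPM at 1 day, against 29.1 ± 3.97 CPM in sham (log2 fold 0.72, SE 0.15, edgeR adjusted p = 0.00185). The transcription factor gene Maf rose by a log2 fold of 0.52 (SE 0.19, adjusted p = 0.0351). Selenop, a selenium carrier also made by other cells, fell to 56.4 ± 15.5 CPM at 1 day, against 147 ± 5.21 CPM in sham, and the Fc receptor Fcgrt fell to 12.8 ± 3.13 CPM, against 22.3 ± 2.01 CPM. The Fcgrt call was lost with total count only (log2 fold -0.35, edgeR adjusted p = 0.128). At 14 days Selenop was at 249 ± 46.9 CPM (log2 fold over sham 0.77, SE 0.19, adjusted p = 0.0210), and Igf1, a growth factor, at 37.2 ± 15.7 CPM, against 14.8 ± 1.39 CPM in sham (log2 fold 1.32, SE 0.27, adjusted p = 0.0148).

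Among 19 other receptors linked to the uptake of dying cells, 11 rose and 3 fell at 1 day, with a median log2 fold of 0.70. Of all genes 29.4% rose and 24.8% fell. Lrp1, a large endocytic receptor, rose to 241 ± 21.8 CPM, against 158 ± 15.9 CPM in sham, and Stab1, a scavenger receptor that binds phosphatidylserine, rose to 77.5 ± 16.8 CPM, against 44.8 ± 3.51 CPM (adjusted p = 0.0127 and 0.00426, edgeR). Cd36, a fatty acid and scavenger receptor that cardiomyocytes and endothelium also make, fell to 514 ± 97.4 CPM, against 887 ± 25.3 CPM (adjusted p = 0.00267). The Cd36 call was lost with total count only (log2 fold -0.33, edgeR adjusted p = 0.125). At 14 days 8 of these 19 were above sham and 1, Scarf1, below it (5.62 ± 0.591 CPM at 14 days and 7.46 ± 0.731 CPM in sham, adjusted p = 0.0479). The shares of all genes were then 8.75% higher and 5.64% lower. With total count only the Scarf1 call was lost (log2 fold -0.32, edgeR adjusted p = 0.440).

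Among 12 bridging proteins and surface signals other than Gas6, 7 rose at 1 day (median log2 fold 0.58) and the other 5 did not pass, and 9 were above sham at 14 days. Of all genes 29.4% rose at 1 day and 8.75% were above sham at 14 days. Mfge8, which links phosphatidylserine to integrins, had a log2 fold over sham of 0.58 at 1 day (SE 0.12, edgeR adjusted p = 0.00149), when Gas6 was lower than in sham. At 14 days over 1 day Mfge8 had a log2 fold of -0.51 (SE 0.12, adjusted p = 0.00350), against 1.11 for Gas6. Calr, the chaperone that can act as an eat-me signal on dying cells, was at 86.7 ± 6.60 CPM at 14 days, at 211 ± 46.1 CPM at 1 day and at 81.5 ± 9.21 CPM in sham (log2 fold at 1 day 1.37, SE 0.16, adjusted p = 8.06e-05). Pros1, the gene of protein S, was chosen after its values were seen. It was at 22.3 ± 5.38 CPM at 14 days, at 22.7 ± 2.91 CPM at 1 day and at 13.6 ± 1.51 CPM in sham, with log2 folds over sham of 0.72 (SE 0.17, adjusted p = 0.0206) at 14 days and 0.75 (SE 0.17, adjusted p = 0.00392) at 1 day. The complement opsonin chains C1qa and C1qc had log2 folds of 0.74 and 0.73 at 14 days over 1 day (SE 0.20 and 0.19, adjusted p = 0.0119 and 0.0103). With total count only these were 0.39 and 0.35 (adjusted p = 0.229 and 0.249), and none of the 5 bridging genes called higher between the times was called.

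Of 20 genes of engulfment and phagosome maturation, 13 rose and 3 fell at 1 day (median log2 fold 0.30), and 4 were above sham at 14 days. The shares of all genes were 29.4% and 24.8% at 1 day and 8.75% at 14 days. The GTPase Rac1 had a log2 fold of 0.37 at 1 day (SE 0.09, edgeR adjusted p = 0.00609), and the lysosomal membrane gene Lamp1 one of -0.41 (SE 0.10, adjusted p = 0.00544). The Lamp1 call was lost with total count only (log2 fold 0.06, adjusted p = 0.800). Lamp2, its relative, was above sham at 14 days with a log2 fold of 0.65 (SE 0.12, adjusted p = 0.00682). Among 14 genes of lipid efflux and of the response to engulfed cells, 5 rose and 4 fell at 1 day, again beside 29.4% and 24.8% of all genes. Apoe, a lipid carrier that macrophages make, followed the order of Gas6, at 162 ± 57.1 CPM at 14 days, 36.6 ± 3.13 CPM at 1 day and 77.8 ± 7.17 CPM in sham (log2 fold over sham 1.05, adjusted p = 0.0105 at 14 days and -1.09, adjusted p = 0.00152 at 1 day). With total count only the 1-day call of Apoe was lost (log2 fold -0.60, edgeR adjusted p = 0.0605).

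Mertk and Axl proteins can be cut off the cell by the metalloprotease ADAM17, whose maturation needs the rhomboid-like proteins encoded by Rhbdf1 and Rhbdf2 and which Timp3 inhibits. Adam17 itself was at 28.5 ± 1.56 CPM at 14 days, at 24.4 ± 0.517 CPM at 1 day and at 26.1 ± 2.0 CPM in sham, with a log2 fold of 0.22 at 14 days over 1 day (SE 0.08, adjusted p = 0.0434, lost at 0.511 with total count only), and passed neither test against sham (edgeR adjusted p = 0.350 at 14 days and 0.346 at 1 day). Rhbdf1 rose at 1 day to 15.2 ± 2.24 CPM, against 8.52 ± 0.272 CPM in sham (log2 fold 0.84, SE 0.13, edgeR adjusted p = 3.93e-04). Rhbdf2 had 8.68 ± 1.34 CPM at 1 day and 6.11 ± 0.422 CPM in sham (log2 fold 0.52, SE 0.13, adjusted p = 0.00581), while at 14 days it was below sham, at 4.14 ± 0.0897 CPM (log2 fold -0.55, adjusted p = 0.0215). The 14-day call of Rhbdf2 was lost with total count only (log2 fold -0.46, edgeR adjusted p = 0.281). Timp3 was above sham at 14 days, at 134 ± 29.2 CPM, against 74.5 ± 6.83 CPM (log2 fold 0.85, SE 0.20, adjusted p = 0.0211). Shed protein was not measured in these libraries.

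Markers of other cells that express some of the 10 genes, or that enter the heart, moved in the same libraries. For comparison, 29.4% of all genes rose and 24.8% fell at 1 day, and 8.75% were above sham at 14 days. Recruited monocyte genes rose at 1 day in 13 of 13 tested, with a summed level of 169 to 442 CPM at 14 days, 371 to 485 CPM at 1 day and 69.2 to 131 CPM in sham for the 14 listed. At 14 days 3 of the 13 (Fn1, Vcan and Ccr2) were above sham and 10 were not called. Most of the 14-day sum was Fn1 and Vcan, at 210 ± 98.8 and 77.5 ± 30.8 CPM. Neutrophil genes rose at 1 day in 8 of 8 tested, with 2.29 to 3.92 CPM at 14 days, 52.2 to 146 CPM at 1 day and 1.84 to 5.24 CPM in sham for the 10 listed, of which Ly6g, a defining neutrophil marker, was at 0 in every library. Of 10 fibroblast genes 5 fell and 1 rose at 1 day and 8 were above sham at 14 days, with 2331 to 4998 CPM at 14 days, 878 to 1060 CPM at 1 day and 944 to 1377 CPM in sham. Gas6 and this summed level were both highest in the 14-day libraries. So was the sum of the other resident macrophage genes, at 341 to 500 CPM, against 186 to 205 CPM at 1 day and 259 to 282 CPM in sham. At 1 day the fibroblast sum overlapped with sham, while Gas6 lay below sham. Single fibroblast genes differed in their order. Dcn, a matrix proteoglycan, was at 630 ± 230 CPM at 14 days, 101 ± 26.3 CPM at 1 day and 226 ± 11.6 CPM in sham, Col3a1, a fibrillar collagen, at 1521 ± 685, 405 ± 84.3 and 241 ± 127 CPM, and the growth factor receptor Pdgfra at 62.4 ± 15.6, 66.1 ± 11.9 and 36.2 ± 0.533 CPM in the same order of groups.

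Of 6 lymphatic endothelial genes, which share Lyve1, 1 rose and 1 fell at 1 day and 4 were above sham at 14 days, among them Mmrn1 at 21.4 ± 9.91 CPM, against 7.21 ± 1.74 CPM in sham (log2 fold 1.58, SE 0.34, edgeR adjusted p = 0.0183). Their summed level was 116 to 158 CPM at 14 days, 73.3 to 83.9 CPM at 1 day and 114 to 118 CPM in sham. Prox1, which cardiomyocytes also express, was one of them, at 71.9 ± 8.38 CPM at 14 days, 34.5 ± 10.4 CPM at 1 day and 85.7 ± 1.07 CPM in sham. Of 10 blood endothelial genes 4 fell at 1 day (with total count only, 3 rose and 1 fell), with 541 to 673 CPM at 14 days, 488 to 507 CPM at 1 day and 627 to 661 CPM in sham. Of 8 cardiomyocyte genes 6 fell at 1 day. Of 8 genes of smooth muscle and pericytes 3 rose and 4 fell at 1 day. These counts stand beside 29.4% of all genes higher and 24.8% lower at 1 day, and 8.75% higher at 14 days. The part of these cells in the levels of the 10 genes was not tested.

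**Figure D4:**
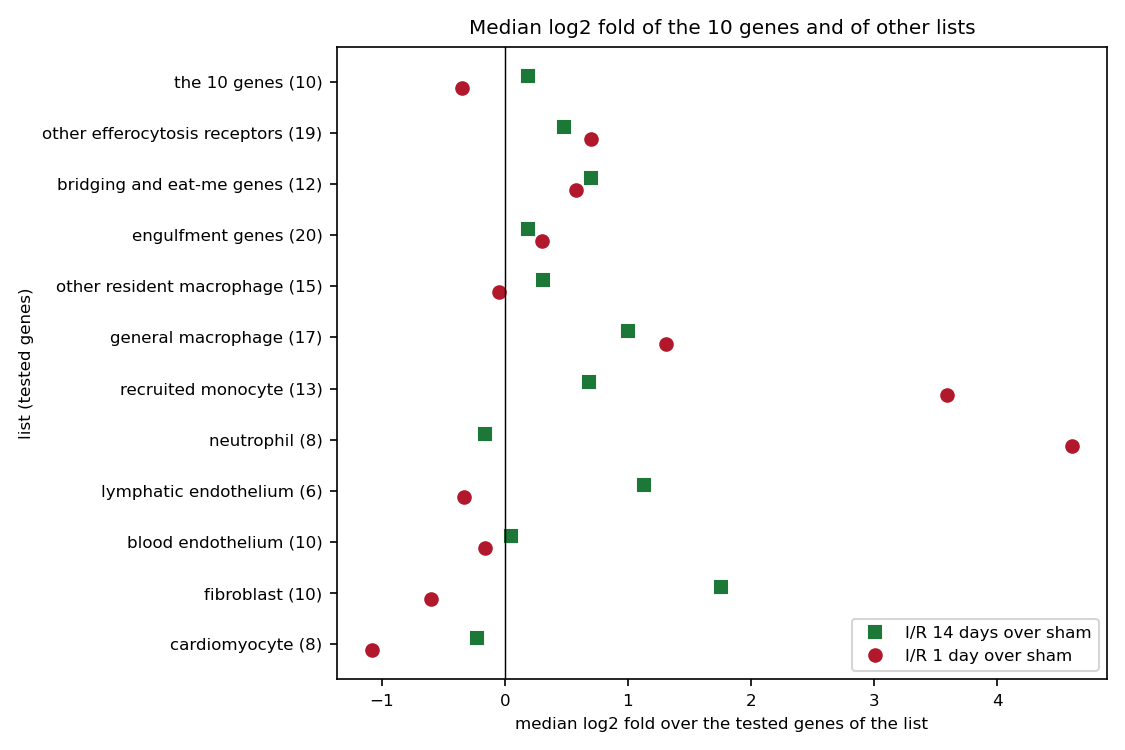
Median log2 fold over sham (x axis) of the 10 genes and of other lists (y axis, number of tested genes in brackets) at 14 days (squares) and at 1 day (circles). The 10 genes lie at -0.35 at 1 day and 0.19 at 14 days, while the general macrophage, recruited monocyte and neutrophil lists lie at 1.31, 3.59 and 4.61 at 1 day.

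Without mouse 6, chosen after the data were seen, the counts of the 10 genes at 1 day were again 2 higher and 3 lower, with Timd4 called and Cd163 not. Of all genes 31.7% were then higher and 26.4% lower. The general macrophage list again had 13 higher, the neutrophil list 8 higher, and the other receptors linked to the uptake of dying cells 13 higher and 3 lower. With total count only, the split of the other receptors at 1 day was 15 higher and 1 lower, that of the engulfment genes 16 higher and 1 lower, that of the response genes 8 higher with the others not called, and that of the other resident macrophage genes 6 higher and 1 lower. Of all genes 48.6% were higher and 7.48% lower with that scaling.

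Genes whose profile over the 9 libraries was nearest to that of a member were taken from 11417 genes by the root mean square difference of log2 CPM centred on each gene's mean. Nearest to Mrc1 were Dock10 (0.057 log2 units) and Maf (0.068). Nearest to Mertk were Ppp2cb (0.071) and Adap2 (0.074), to Axl Npdc1 (0.073) and Fgfr1 (0.083), and to Gas6 Pam (0.077) and Mr1 (0.103). Nearest to Folr2 were Heyl (0.080) and Steap4 (0.111), to Cd163 Pecr (0.079) and Shroom2 (0.084), to Cbr2 Creb1 (0.060) and Odr4 (0.068), and to Lyve1 Tk2 (0.076) and Dusp12 (0.090). Apart from Maf, no nearest gene was on the lists of macrophage genes used here. Steap4, a metalloreductase, showed the Folr2 order at 27.6 CPM at 14 days, 15.6 CPM at 1 day and 25.2 CPM in sham on average.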

How the data were processed

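Total RNA of the left ventricle was sequenced in 9 mice. Stranded libraries were made from TRIzol-extracted RNA after ribosomal RNA was removed, per the labels' protocols. The submitters' processing notes name STAR 2.7.1a and GRCm38 (mm10). The authors deposited raw whole-number counts for each gene. How reads were counted, strand setting included, is not given in the sources used here. The groups share no replicate numbers, and nothing pairs the mice.

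Gene IDs were matched to GENCODE M21 (GRCm38), which held 36429 of 38293 genes. The test was edgeR's quasi-likelihood test (version 4.0.16, R 4.3.3, robust, TMM scaling, filterByExpr, 9 libraries in 1 fit), with a Benjamini-Hochberg threshold of 0.05 over 14124 genes. CPM used the TMM-scaled library sizes. Levels relative to macrophage genes used log2 CPM with a prior count of 2 and two-sided exact permutation tests (scipy 1.17.1). Libraries within a group did not agree within sampling noise (chi-square per degree of freedom 7.28 to 97.5), so each was 1 replicate. Depth limits the low genes, as stated beside them. Alternatives were DESeq2 1.42.0 (size factors, and its Wald test), total count only, limma-voom (limma 3.58.1), upper-quartile scaling, TMM computed without mitochondrial genes, other filters, only the groups compared, and each library left out. Ratios of members, Csf1r as the only reference and the attention to mouse 6 were added after the data were seen.

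The 10 genes and the other lists were chosen with earlier results of these data known. Named were all 10 genes, per list the called genes with the highest mean CPM (up to 3 in the commoner direction and 2 in the rarer), and the 2 nearest profiles per gene of at least 1 CPM. Not every gene so taken is printed. Figures were drawn with matplotlib 3.10.9.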

Additional observations from a re-analysis of the deposited data

Results flagged for a closer look

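Of the 10 genes, Gas6 and Folr2 differed between the times after I/R in the test of that difference. Gas6 had a log2 fold of 1.11 at 14 days over 1 day, below sham at 1 day and above it at 14 days. Folr2 had a log2 fold of 0.94 at 14 days over 1 day, below sham at 1 day and overlapping with sham at 14 days. Fibroblast genes had a median log2 fold of 2.03 at 14 days over 1 day and lymphatic endothelial genes one of 1.07. Recruited monocyte and neutrophil genes had medians of -2.03 and -4.84. The part of any of these cells in either difference was not tested. Groups of 3 libraries were too small for a check of single outlying samples.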

How the results depend on the processing

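No paired analysis was possible because the groups share no replicate numbers. Of 534 log2 folds of the 10 genes under alternatives, 479 kept their direction and side of the threshold, 14 were newly called, 25 lost the call and 16 changed sign, 1 of them (Cd163 at 1 day over sham with total count only) also losing its call. Total count only changed the sign of Cd163 (0.02) and Cbr2 (0.26) at 1 day over sham, of Timd4 (0.02) at 14 days over sham, and at 14 days over 1 day of Mertk (-0.37), Lyve1 (-0.25), Cd163 (-0.05), Mrc1 (-0.07), Cbr2 (-0.03) and Vsig4 (-0.13). It called 832 genes at 14 days over sham in place of 2033. At 14 days over 1 day it called 1 of the 10 genes in place of 2, beside 46.3% of all genes in place of 51.9%. Upper-quartile scaling called 4 there, beside 52.1% of all genes.

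With 1 library left out, the count of the 10 genes called ran from 2 to 5 at 1 day over sham, beside 43.2% to 58.1% of all genes. It ran from 0 to 4 at 14 days over sham, beside 3.31% to 22.0%, and from 2 to 4 at 14 days over 1 day, beside 39.4% to 57.1%. The count of all genes called at 14 days over sham ran from 478 (without sham mouse 2) to 3221 (without mouse 6). Sign changed for values that did not pass: Timd4 at 14 days over sham (0.22 without sham mouse 3, 0.12 without library C), and at 14 days over 1 day Axl (0.08 without mouse 4 and 0.09 without library A, in a range of -0.22 to 0.09), Vsig4 (-0.17 without mouse 5, range -0.17 to 0.68), Mertk (-0.04 without mouse 6) and Lyve1 (-0.01 without library C, range -0.01 to 0.25). Among the ratios of 2 genes, the log2 difference changed sign at 14 days over 1 day for Axl to Mertk (0.05, range -0.32 to 0.05), Cd163 to Mrc1 (-0.20, range -0.20 to 0.36) and Cbr2 to Mrc1 (-0.09, range -0.09 to 0.27) without library A and for Lyve1 to Mrc1 (0.07) without library B, and at 14 days over sham for Gas6 to Axl (0.01, range -0.11 to 0.01) without sham mouse 2.

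Against Csf1r alone, in place of the 17 macrophage genes, the sign changed at 1 day over sham for Axl (0.60), Mrc1 (0.42), Lyve1 (0.14) and Mertk (0.08), at 14 days over sham for Mrc1 (0.26), Axl (0.12) and Gas6 (0.08), and at 14 days over 1 day for Axl (-0.48), Mertk (-0.37), Lyve1 (-0.28), Mrc1 (-0.16), Cbr2 (-0.07) and Cd163 (-0.02). The cause of these changes was not tested beyond what each alternative alters. Timd4 and Vsig4 had no more than 36 counts in any library, which limits what could be detected.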
